A study of Mus musculus with 2 samples.

Results

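The 10 genes followed here are regulators of photoreceptor fate in the mouse retina: Otx2, Crx, Prdm1, Rorb, Nrl, Nr2e3, Samd7, Thrb, Rxrg and Esrrb. They were taken by symbol from the 30892 genes listed outside the mitochondrial genome, and all 10 are listed in both libraries. Their RNA was read by single-cell RNA-seq in whole retinas at postnatal day 7, in which a droplet gives the transcripts of each cell a barcode and each molecule a unique molecular identifier (UMI). The control library, labelled Ctrl, came from 2 pooled retinas of control pups, and 2 retinas of their Six3-Cre+; Mettl3 floxed/floxed littermates were pooled for the library called Mettl3-CKO. Six3-Cre acts in retinal progenitor cells from early embryonic life, and the study describes the knockout as efficient in the central retina. Whether the control pups carried Six3-Cre or a floxed allele is not given in the sources used here. With 1 library in each group there is no replicate and no test, every value stands for 1 pool of 2 retinas, and all intervals are 95% intervals that cover counting error only.

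Photoreceptors arise from retinal progenitors that pass through a neurogenic state and a postmitotic precursor state. OTX2 is a homeodomain factor that commits precursors to the photoreceptor or bipolar lineage, and it activates Crx, the homeodomain factor that drives photoreceptor genes at large. PRDM1, also called BLIMP1, holds back the bipolar programme in such precursors. RORB, an orphan nuclear receptor, acts upstream of Nrl, the leucine zipper factor that directs precursors to the rod fate. NR2E3, a nuclear receptor downstream of NRL, activates rod genes and represses cone genes, and SAMD7 is a Polycomb-associated protein that silences genes of other fates in rods. THRB, a thyroid hormone receptor, and its partner RXRG act in cones and set cone opsin choice. ESRRB, an estrogen-related receptor, takes part in rod maintenance.

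The 10 genes lie on 8 chromosomes of build GRCm38. The genes of the shared photoreceptor step are Otx2 at chr14:48657677-48673819, Crx at chr7:15865947-15879968, Prdm1 at chr10:44437177-44528501 and Rorb at chr19:18930605-19111196, all on the minus strand. The rod genes are Nrl at chr14:55518978-55524981 and Nr2e3 at chr9:59942771-59960659 on the minus strand, with Samd7 at chr3:30746293-30767174 and Esrrb at chr12:86361117-86521628 on the plus strand. The cone genes are Thrb at chr14:17660261-18038090 and Rxrg at chr1:167598384-167639623, both on the plus strand. Nr2e3 overlaps Gm7616 and Gm15507, Otx2 overlaps its antisense gene Otx2os1 and Thrb overlaps Gm48321. The strand setting of the counting is not stated, so reads of overlapping genes may not have been told apart.

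OTX2 and CRX bind the same core, TAATCC, so promoters of the 10 genes that hold it show where these 2 members could meet the others. In the 250 bases before a start, in RefSeq starts of GRCm38.p6 and on either strand, TAATCC was present in 6.25% of 32851 promoters. Among the 17 promoters matched to the 10 genes, 4 held it, and these belong to Crx, Otx2, Samd7 and Thrb. The Crx promoter held it at 2 places, which begin at -94 and -21 relative to the start, and the Samd7 promoter held it once, at -139. The core of nuclear receptor sites, AGGTCA, was present in 14.0% of all promoters and in 2 of the 17, those of Rxrg and Thrb. TGCTGA, a core of sites for MAF factors such as NRL, was present in 16.1% of all promoters and in 2 of the 17, those of Otx2 and Rorb. These are matches of letters, and binding was not measured. The Crx promoter (chr7:15879956-15880205, minus strand) and the Samd7 promoter (chr3:30746043-30746292, plus strand) are shown because Crx and Samd7 both hold the core and were both highest in rod-like cells. Capitals mark the core, here read as GGATTA from the other strand.
Crx: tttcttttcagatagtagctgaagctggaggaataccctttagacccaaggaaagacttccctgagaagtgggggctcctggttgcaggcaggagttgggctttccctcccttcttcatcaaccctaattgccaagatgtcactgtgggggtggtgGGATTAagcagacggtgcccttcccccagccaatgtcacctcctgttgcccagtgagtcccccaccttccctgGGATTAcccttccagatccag
Samd7: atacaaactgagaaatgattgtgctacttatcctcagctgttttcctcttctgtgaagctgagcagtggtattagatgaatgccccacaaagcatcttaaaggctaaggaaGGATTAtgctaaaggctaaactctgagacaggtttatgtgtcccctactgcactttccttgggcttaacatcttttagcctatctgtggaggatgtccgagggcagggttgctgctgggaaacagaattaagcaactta

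The analysed part of the 2 libraries held 3994 control cells with 20955138 UMIs and 3109 Mettl3-CKO cells with 19957693 UMIs, with a median of 4520.5 and 5207 UMIs per cell. Mettl3 itself was counted at 39.5 CPM, its UMIs per 1000000 UMIs of the cells, in the control library and 33.1 CPM in the Mettl3-CKO library, a log2 ratio of -0.26 (-0.41 to -0.11). The libraries read transcript 3′ ends, and which exons the floxed allele removes is not given in the sources used here, so this count does not check the deletion. Xist, the RNA of the inactive X chromosome, had a UMI in 0.751% of control cells and in 56.3% of Mettl3-CKO cells, so the sex of the pups and their genotype cannot be told apart in any comparison below. Both libraries shared 5 cell barcodes. Cells were clustered without the 10 genes, so that none of their values could form a class, and clusters were named from markers that hold none of the 10. This gave neurogenic-like cells (315 control and 416 Mettl3-CKO), rod-like cells (1151 and 704), cone-like cells (95 and 103) and bipolar-like cells (218 and 138). No cluster was named for precursors. The cluster led by Atoh7 and Olig2 had 3 of their 5 markers raised, but also 7 of the 9 neurogenic markers, with more of these among its leading genes, and so went to the neurogenic-like cells. In another cluster only Neurod4 of the 5 was raised, and it is called Neurod4-high here (197 and 202 cells). A further pair of unnamed clusters led by Pcp2, a gene of bipolar cells and young photoreceptors, is called Pcp2-high (775 and 574 cells). Neurod4 was raised in one of this pair too, the cluster led by Pcp2 and Ece1.

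Levels were ordered over these 6 classes for each gene but Esrrb, which was too rare. For the other 9, the order in the 2 libraries was the same or differed only by a swap of neighbours, and Crx and Nrl had 1 order in common. Otx2 was highest in Neurod4-high cells, at 4061 CPM in the control library (3949 to 4176) and 3922 CPM in the Mettl3-CKO library (3812 to 4035). It stood at 2976 and 3131 CPM in bipolar-like cells and at 1219 and 1312 CPM in rod-like cells, the lowest class being rod-like in the Mettl3-CKO and cone-like in the control library. Prdm1 was also highest in Neurod4-high cells, at 572 and 629 CPM, with overlapping intervals in Pcp2-high cells, at 538 and 603 CPM. These peaks hold for whole classes. The cluster led by Pcp2 and Ece1 alone held Prdm1 at 626 and 714 CPM and Otx2 at 3976 and 3909 CPM. Its intervals overlapped those of Neurod4-high cells for both genes in each library. The lowest level of Prdm1 was in bipolar-like cells, at 105 and 142 CPM. Its interval there overlapped that of cone-like cells in the control library and of neurogenic-like cells in the Mettl3-CKO library. Rorb was highest in Neurod4-high and neurogenic-like cells, whose intervals overlapped in each library, and lowest in cone-like cells, at 546 and 807 CPM.

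Crx reached its highest level in rod-like cells, at 952 and 919 CPM, with Pcp2-high cells overlapping at 950.2 and 893 CPM, and was lowest in neurogenic-like cells, at 274 and 212 CPM. The 3 rod genes shared a steeper profile. Nrl stood at 2284 and 2114 CPM in rod-like cells, at 1558 and 1466 CPM in Pcp2-high cells and at 44.8 and 36.7 CPM in neurogenic-like cells. Nr2e3 had the same order of the upper classes, with 5958 and 5677 CPM in rod-like cells, 2778 and 2506 CPM in Pcp2-high cells, and 56.6 and 65.9 CPM in Neurod4-high cells. Neurod4-high cells thus held Nrl at 233 and 226 CPM with Nr2e3 still near its lowest level. Samd7 was highest in rod-like cells, at 581 and 537 CPM, and stood at 2.75 and 5.20 CPM in neurogenic-like cells.

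The cone genes had another profile. Thrb was highest in cone-like cells, at 386 and 361 CPM, and next in rod-like cells, at 63.4 and 67.3 CPM. Rxrg stood at 151 and 131 CPM in cone-like cells and at 85.9 and 95.6 CPM in rod-like cells, a smaller gap than that of Thrb. Both were near their floor in neurogenic-like cells, with 13 Thrb and 10 Rxrg UMIs in all. Esrrb had 26 UMIs over all cells of both libraries, 19 of them in rod-like cells, where it stood at 1.95 and 2.72 CPM. No UMI of Esrrb was counted in neurogenic-like, Neurod4-high or bipolar-like cells of either library, and at this depth its level there could not be measured.

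**Figure D1:**
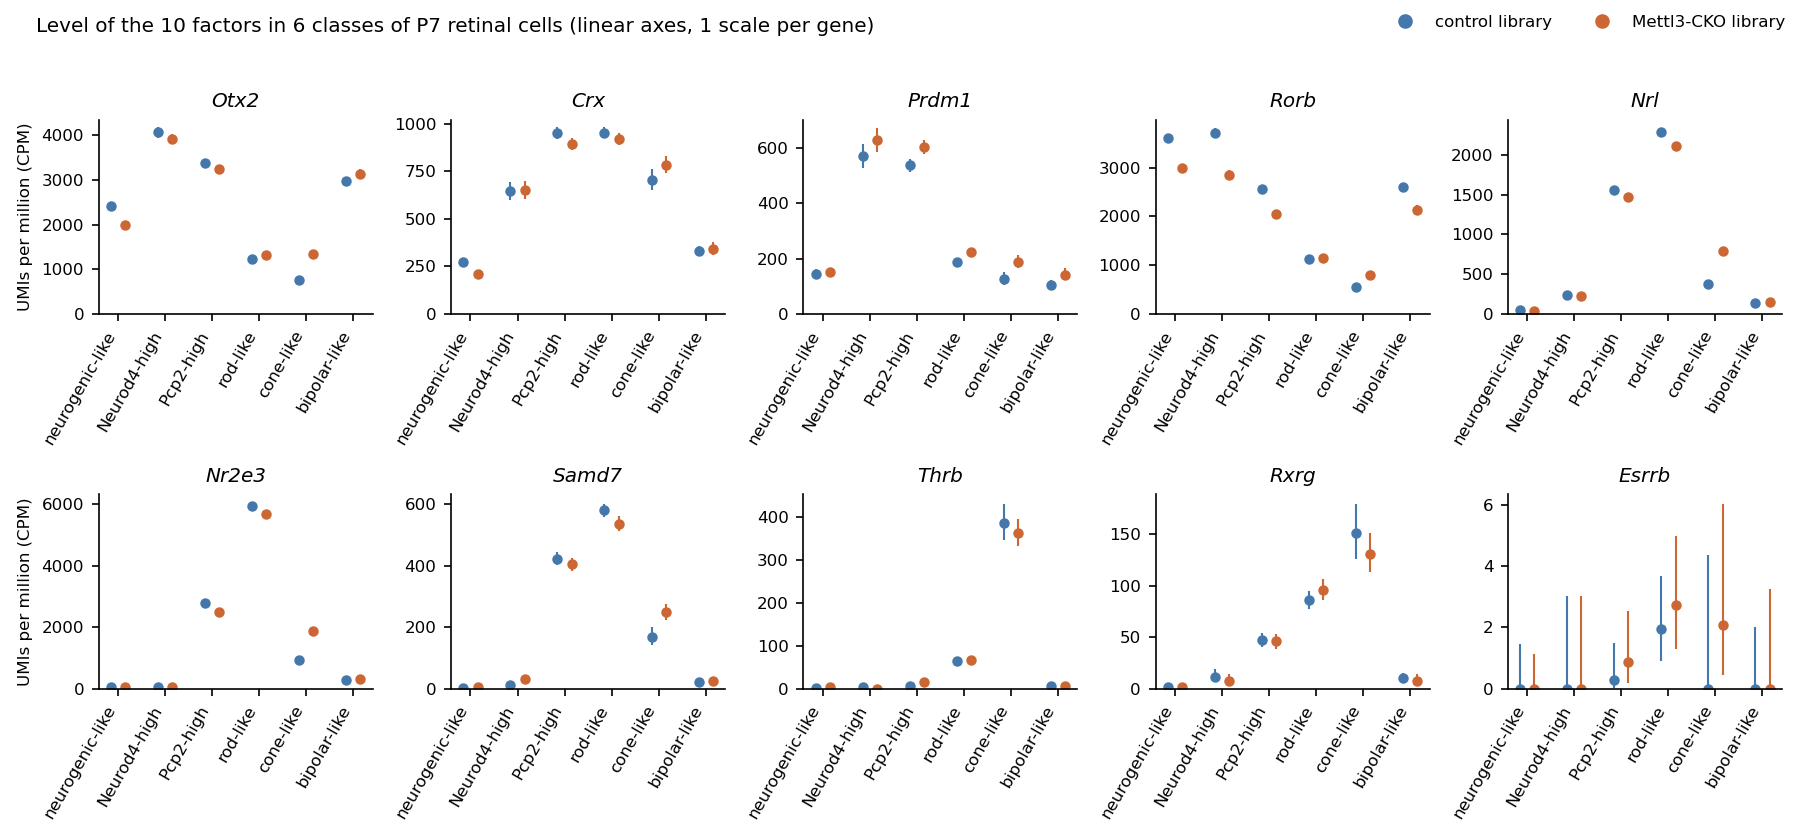
Each panel plots the CPM of 1 gene on a linear axis over the 6 cell classes, in the control library and the Mettl3-CKO library, with exact Poisson intervals as bars. Over the 6 classes, Nrl, Nr2e3 and Samd7 peak in rod-like cells, Thrb and Rxrg in cone-like cells and Otx2 in Neurod4-high cells. Prdm1 also peaks there, with overlapping intervals in Pcp2-high cells. In cone-like cells Nr2e3 reads 938 and 1890 CPM.

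Shares of cells with a UMI were compared with every cell thinned to 1000 UMIs, and their order over the classes was not that of the levels for every gene. Nr2e3 was then found in 99.1% of control rod-like cells and in 98.8% of Mettl3-CKO rod-like cells, against 6.35% and 3.12% of neurogenic-like cells. Before thinning the shares were 99.7% and 99.4% in rod-like cells, at medians of 4091 and 4387 UMIs, and 20.6% and 18.5% in neurogenic-like cells, at medians of 7756 and 7439 UMIs. In microglia-like cells, immune cells that should lack the gene, 17.6% of 34 control and 10.0% of 30 Mettl3-CKO cells had an Nr2e3 UMI at medians of 1500.5 and 1459.5 UMIs. After thinning these were 9.09% (1.12 to 29.2) and 0% (0 to 16.8), intervals that hold the neurogenic-like shares, so Nr2e3 there could not be told from free RNA. Otx2 was found in 98.0% and 97.5% of thinned Neurod4-high cells, and Rorb in 94.4% and 89.1%. Prdm1 was found in 43.7% and 43.1% of them, and in 8.26% and 15.9% of bipolar-like cells.

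Pairs of genes were also counted in single cells. At 1000 UMIs, Nrl and Thrb were found together in 4.91% of control and 4.77% of Mettl3-CKO rod-like cells, and in 7.61% and 4.85% of cone-like cells. Nr2e3 and Thrb were found together in 10.9% and 13.6% of cone-like cells, and Nr2e3 and Rxrg in 8.21% and 8.96% of rod-like cells. Otx2 and Crx were found together in 45.2% and 45.0% of Neurod4-high cells, with 57.0% and 51.9% in Pcp2-high cells. Otx2 and Nrl shared 17.3% and 15.3% of Neurod4-high cells and 69.9% and 69.2% of Pcp2-high cells. Such shares rest on few UMIs per cell and understate how many cells hold both RNAs. They also depend on the share of each gene alone, so nothing is read from them on whether 2 genes avoid each other.

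The pattern of each gene was compared with 8484 genes over the 21 clusters, with both libraries summed, by Pearson's r of log2(CPM + 1). These clusters share libraries, depth and free RNA, so r is a description. Nrl was most like Rom1 (r = 0.97), Prph2 (0.97) and Samd11 (0.96), of which the first 2 are structural proteins of the outer segment. Nr2e3 was most like Samd11 (0.99), Pdc (0.98) and Tulp1 (0.98), and Samd7 like Samd11 (0.98), Nr2e3 (0.96) and Tulp1 (0.96). Crx was most like Zfp444 (0.99), Trak2 (0.97) and Pcmtd2 (0.96). For Otx2 the nearest were Rbm24 (0.96), Mbp (0.94) and Ankrd33b (0.93). Prdm1 had Glcci1 (0.95), Lcorl (0.94) and Amer2 (0.94) nearest, and Rorb had Bcl7a (0.96), Ptbp2 (0.95) and Rcor2 (0.91). Thrb was most like Rtbdn (0.95), Fam161a (0.94) and AI847159 (0.93), and Rxrg like Cdhr1 (0.95), Pitpnm3 (0.94) and Lgalsl (0.94). Within the 10 genes, Nrl, Nr2e3 and Samd7 were close to each other, with r from 0.95 to 0.96, and Samd7 and Crx had r = 0.80. The cone genes were close to them too, Rxrg with Nrl (0.90), Samd7 (0.89) and Nr2e3 (0.88), and Thrb with Nr2e3 (0.82) and with Rxrg (0.82). Rorb was near 0 with Nr2e3 (0.03) and Samd7 (0.08).

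The comparison of genotypes asks whether loss of Mettl3, the methyltransferase that places m6A on RNA, went with other levels of these regulators. In each class the ratio of CPM was formed for genes with at least 50 UMIs over both libraries, and a gene was counted when the ratio was past 1.5-fold. In neurogenic-like cells, 0 of 6 members with enough UMIs were past 1.5-fold, against 9.08% of all 9333 genes. In Neurod4-high cells it was 0 of 6, against 7.05% of 6569 genes, and in rod-like cells 0 of 9, against 5.57% of 9360 genes. Bipolar-like cells gave 0 of 7, against 15.1% of 7518 genes. Pcp2-high cells gave 1 of 9, against 5.52% of 9365 genes, and cone-like cells gave 3 of 9, against 11.0% of 6611 genes. The median log2 ratio of the members was -0.27 in neurogenic-like cells and 0.56 in cone-like cells, and from -0.06 to 0.08 in the other 4 classes. The median over all genes tested lay between -0.05 and 0.03 in the 6 classes.

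**Figure D2:**
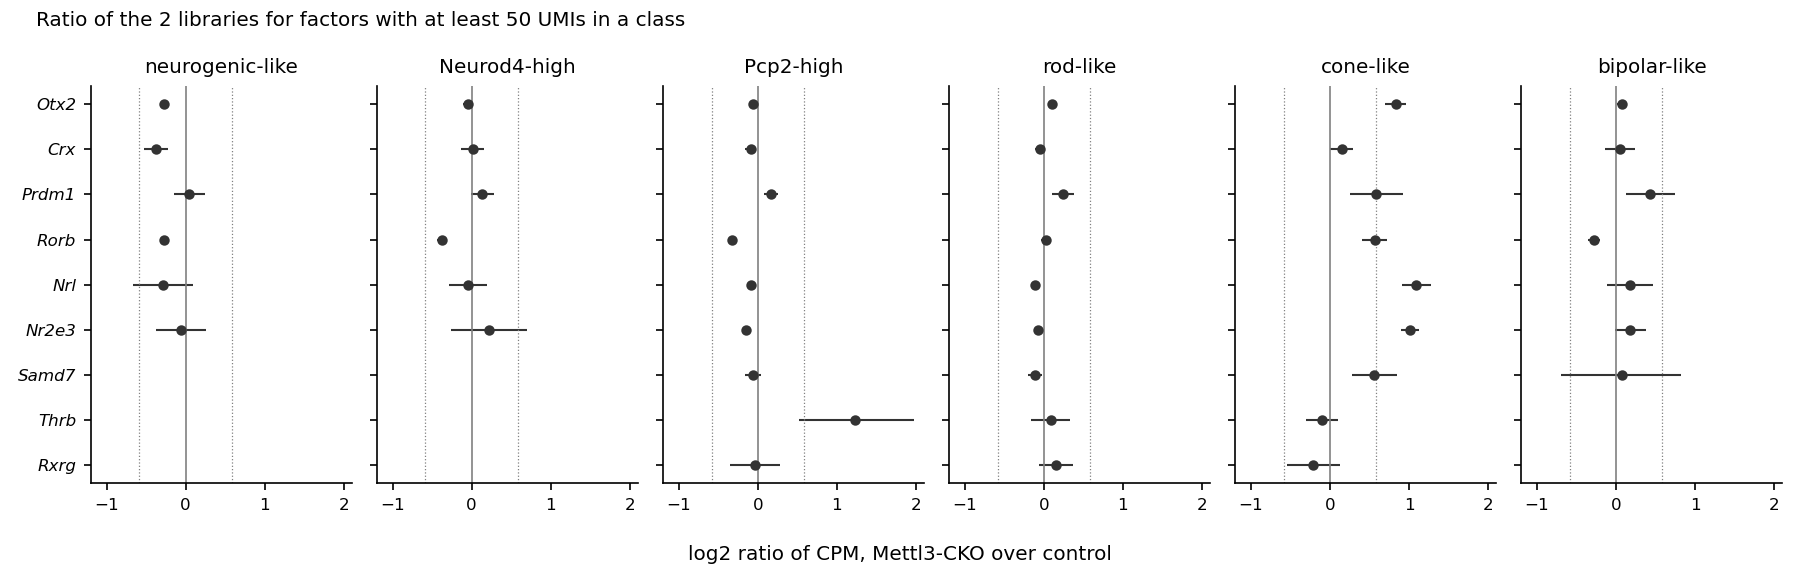
Each panel plots, for 1 cell class, the log2 ratio of CPM of the Mettl3-CKO library over the control library with its exact binomial interval, for genes with at least 50 UMIs in that class. Dotted lines mark 1.5-fold. Nrl, Nr2e3 and Otx2 lie past the line in cone-like cells, with Thrb past it in Pcp2-high cells, while Rorb lies below 0 in neurogenic-like, Neurod4-high, Pcp2-high and bipolar-like cells and not in rod-like or cone-like cells.

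Rod-like cells held the factors of rod fate at close to equal levels in the 2 libraries. For Nrl the log2 ratio was -0.11 (-0.15 to -0.07), for Nr2e3 -0.07 (-0.10 to -0.04), for Crx -0.05 (-0.12 to 0.01) and for Samd7 -0.11 (-0.20 to -0.03). Intervals of this width lie well inside 1.5-fold. Otx2 was at 0.11 (0.05 to 0.16) and Prdm1, counted at 189 and 224 CPM, at 0.24 (0.11 to 0.38). Rorb (0.03), Thrb (0.09) and Rxrg (0.16) had intervals that hold 0. The rod-like class joins 4 clusters. In the cluster led by Nr2e3, Pde6b and Rp1, Nr2e3 stood at 6250 and 5579 CPM (log2 ratio -0.16, -0.20 to -0.13), and in the one with Cnga1 and Impg1 among its leading genes at 5789 and 5957 CPM (0.04, with an interval that holds 0). In the shallow cluster with Gngt1 among its leading genes, 1 of 6 members with enough UMIs was past 1.5-fold, against 13.5% of 1990 genes. This was Otx2, with 138 and 101 UMIs, or 317 and 541 CPM (0.77, 0.38 to 1.15). The 16 rod markers summed to 31230 CPM in the control and 28577 CPM in the Mettl3-CKO rod-like cells, and 0 of the 15 with enough UMIs were past 1.5-fold.

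Pcp2-high cells expressed both Otx2 and the rod genes, with Crx at 950.2 and 893 CPM. Rorb was at 2567 CPM in the control library and 2052 CPM in the Mettl3-CKO library, a log2 ratio of -0.32 (-0.37 to -0.28). For Nr2e3 the log2 ratio was -0.15 over the class and farther from 0 within each of its clusters, but it turned to 0.13 with the 2 libraries clustered separately and to 0.01 with the Mettl3-CKO cells of at least 4000 UMIs that had Xist. In the cluster led by Pcp2 and Ece1 it stood at 1520 and 1184 CPM (log2 ratio -0.36, -0.44 to -0.28), and in the one led by Pcp2 and Klhl33 at 4850 and 3614 CPM (-0.42, -0.47 to -0.38). The Klhl33 cluster, where Nr2e3 is higher, held 299 of the 775 control cells and 260 of the 574 Mettl3-CKO cells. Nrl moved in the same direction in both clusters, with log2 ratios of -0.15 and -0.18. Thrb was the member past 1.5-fold, with 25 control and 54 Mettl3-CKO UMIs, or 6.65 and 15.6 CPM (log2 ratio 1.23, 0.52 to 1.98). After thinning it was found in 0.387% and 0.871% of the cells, near the level of 1 UMI, and from it no difference in the share of cells can be read. Among cells of at least 4000 UMIs, with the Mettl3-CKO cells that lacked Xist, its log2 ratio was 1.18 but rested on fewer than 50 UMIs. Within the clusters Thrb had 3 and 13 UMIs in one, and 15.5 and 21.8 CPM in the other (0.49, -0.29 to 1.31). Of the rod markers in these cells, 7 of 13 were past 1.5-fold and higher in the Mettl3-CKO library and their sum was 6036 and 7617 CPM, while the 5 cone markers with enough UMIs included 1 higher gene, Gnat2. The part of rod RNA in the Thrb value was not tested.

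Neurogenic-like cells and Neurod4-high cells held the factors of the shared step. In neurogenic-like cells, Otx2 was counted at 2409 and 1988 CPM (log2 ratio -0.28, -0.33 to -0.23), Crx at 274 and 212 CPM (-0.37, -0.53 to -0.22) and Rorb at 3614 and 2999 CPM (-0.27, -0.31 to -0.23). Prdm1 was at 146 and 151 CPM, with an interval that holds 0. This class joins an earlier cluster led by Neurog2 and Dll1, with genes of DNA replication, and a later cluster led by Atoh7 and Olig2. The words earlier and later follow these markers, and no order in time was measured. The first had 5 neurogenic markers raised (mean log2 ratio to other cells 1.23), but also 7 Müller markers (0.45). In the second the mean was 2.12 for the precursor list and 1.53 for the neurogenic list. The earlier one, low in Otx2, gave 150 of 315 control cells and 220 of 416 Mettl3-CKO cells. Within it Otx2 was at 1070 and 809 CPM (log2 ratio -0.40, -0.51 to -0.29), and within the later cluster at 3653 and 3416 CPM (-0.10, -0.15 to -0.04). For Crx the ratios were -0.55 (-1.07 to -0.03) and -0.18 (-0.34 to -0.01). With the 2 libraries clustered separately, the log2 ratio of Otx2 in neurogenic-like cells turned to 0.29 and that of Crx to 0.17. Naming each cell by its own markers gave 0.37 for Crx. In the later cluster alone, 2 of 6 members were past 1.5-fold, against 8.96% of 7162 genes, Nrl at 59.8 and 31.8 CPM and Nr2e3 at 77.3 and 49.3 CPM, both lower in the Mettl3-CKO library. In the earlier cluster alone, 1 of 6 was, against 10.4% of 7566 genes, and this was Nr2e3 the other way, at 42.4 and 65.3 CPM. For comparison, microglia-like cells held Nr2e3 at 169 and 16.1 CPM, from 36 and 4 UMIs. These lay in only 6 of 34 control and 3 of 30 Mettl3-CKO cells, so they give no general background level. Of the rod markers 1 of 9, Rp1, was past 1.5-fold higher in Mettl3-CKO neurogenic-like cells, and the list summed to 580.5 and 575 CPM.

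In Neurod4-high cells the 2 libraries were close for Otx2 (log2 ratio -0.05, -0.11 to 0.01), Crx (0.01, -0.13 to 0.16), Prdm1 (0.14, -0.01 to 0.29) and Nrl (-0.05, -0.29 to 0.20). Rorb was the exception, at 3712 CPM in the control and 2857 CPM in the Mettl3-CKO library, a log2 ratio of -0.38 (-0.44 to -0.31). Samd7 had 13 and 36 UMIs, or 10.7 and 29.7 CPM, and was left out of the count with 49 UMIs in all. It entered, past 1.5-fold, with called doublets left out and at resolution 2, each time with Nr2e3, and with cells named by their own markers. That last setting picks cells by all 5 precursor markers and not by Neurod4 alone. Thrb had 3 UMIs in the control library and 0 in the Mettl3-CKO library, so no ratio was formed.

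In bipolar-like cells, Otx2, which bipolar cells keep, was at 2976 and 3131 CPM (log2 ratio 0.07, 0.01 to 0.13). Rorb was at 2595 and 2141 CPM (-0.28, -0.35 to -0.21), and Prdm1 at 105 and 142 CPM (0.44, 0.12 to 0.74). The rod genes Nrl, at 135 and 153 CPM, and Nr2e3, at 283 and 321 CPM, had intervals that hold 0. These counts depended on how cells were picked. With cells named one by one from their own markers, 5 of 7 members were past 1.5-fold and higher in the Mettl3-CKO library (Crx, Nrl, Nr2e3, Prdm1 and Samd7), against 18.1% of 6205 genes past it in either direction. With called doublets left out 3 of 7 were (Nrl, Nr2e3 and Samd7), against 15.2% of 7338 genes. Among bipolar-like cells 10 control and 0 Mettl3-CKO cells were called doublets, so that setting took out control cells only. Other settings went below 0. The log2 ratio of Nr2e3 was -0.46 with the 2 libraries clustered separately, and with Mettl3-CKO cells of at least 4000 UMIs without Xist it was -0.21 for Nrl and -0.37 for Samd7. Of 12 rod markers, 3 were past 1.5-fold and higher in the Mettl3-CKO bipolar-like cells, Cnga1 and Rp1 among them, while the sum of the rod markers was 1778 and 1814 CPM. The part of such rod RNA in the bipolar-like values was not tested.

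Over the classes, Rorb was lower in the Mettl3-CKO library by a ratio of 0.830 in neurogenic-like, 0.770 in Neurod4-high, 0.799 in Pcp2-high and 0.825 in bipolar-like cells, each with an interval below 1. The sign held in 15 of 15, 12 of 12, 14 of 14 and 13 of 13 alternative settings in these classes. These settings reuse cells of the same 2 libraries, so their agreement is no independent support. In rod-like cells the ratio was 1.02, in amacrine-like cells 0.961 and in Müller-like cells 0.997, and in cone-like cells it was 1.48. In progenitor-like cells it was 1.08, with an interval above 1. None of these passed 1.5-fold. In microglia-like cells, which should lack it, Rorb had 38 and 12 UMIs. Prdm1 was higher in the Mettl3-CKO library in all 6 classes, with ratios of 1.03 in neurogenic-like, 1.10 in Neurod4-high, 1.12 in Pcp2-high, 1.18 in rod-like, 1.35 in bipolar-like cells, and just under 1.5 in cone-like cells. In neurogenic-like and Neurod4-high cells its interval holds 1. Its sign turned in 1 setting each in neurogenic-like, rod-like and cone-like cells, that with Mettl3-CKO cells without Xist, and in Pcp2-high cells with the libraries clustered separately. It was also past 1.5-fold higher in amacrine-like (ratio 2.12), Müller-like (2.36) and progenitor-like cells (1.55, from 49 and 131 UMIs). In microglia-like cells it had 14 and 0 UMIs.

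Of the 6 classes, cone-like cells had the most members past 1.5-fold, and over the settings given for them the count ran from 1 to 6 of 9. Nrl, the rod switch, was counted 313 times in control and 1149 times in Mettl3-CKO cone-like cells, or 372 CPM (332 to 416) and 794 CPM (749 to 841). Its log2 ratio was 1.09 (0.91 to 1.28). Nr2e3 was at 938 CPM (874 to 1006) and 1890.2 CPM (1820.0 to 1962), a log2 ratio of 1.01 (0.90 to 1.13). Otx2 was at 754 CPM (696 to 815) and 1341 CPM (1282 to 1402), a log2 ratio of 0.83 (0.70 to 0.96). The intervals of the 2 libraries do not overlap for any of the 3. They cover counting error only, and not the spread between cells or between retinas.

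Just inside 1.5-fold were Prdm1, at 126 and 189 CPM (log2 ratio 0.58), Rorb, at 546 and 807 CPM (0.56), and Samd7, at 169 and 249 CPM (0.56). Crx, which rods and cones share, was at 705 and 783 CPM (0.15, 0.01 to 0.30). The 2 cone factors did not follow: Thrb had a log2 ratio of -0.10 (-0.30 to 0.11) and Rxrg of -0.21 (-0.54 to 0.13). Esrrb had 0 and 3 UMIs. With every cell thinned to 1000 UMIs, Nrl was found in 21.7% (13.8 to 31.6) of control and 43.7% (33.9 to 53.8) of Mettl3-CKO cone-like cells, and Nr2e3 in 31.5% and 55.3%. Before thinning, the shares were 54.7% and 86.4% for Nrl, at medians of 8470 and 13003 UMIs per cell. The share for Otx2 went from 35.9% (26.1 to 46.5) to 62.1% (52.0 to 71.5), while for Thrb it was 31.5% and 29.1%. Crx and Nrl were found together in 6.52% and 22.3% of these cells. The median cone-like cell had Nr2e3 at 251 CPM in the control library and 1127 CPM in the Mettl3-CKO library. The lower and upper quartiles were 24.0 and 768 CPM in the control and 142 and 2373 CPM in the Mettl3-CKO library.

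**Figure D3:**
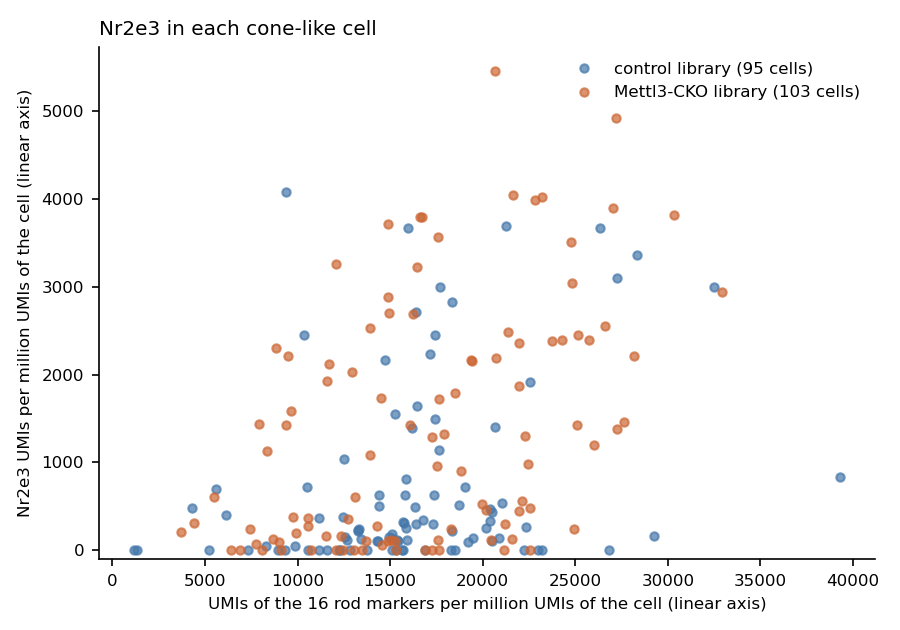
Each point is 1 cone-like cell, 95 from the control and 103 from the Mettl3-CKO library, with the UMIs of the 16 rod markers per 1000000 UMIs of the cell on the x axis and those of Nr2e3 on the y axis, both linear. Nr2e3 starts at 0 in both libraries, while the rod markers start at 1168 CPM in the control and 3698 CPM in the Mettl3-CKO library. The medians are 251 CPM in the control and 1127 CPM in the Mettl3-CKO library for Nr2e3, and 15798 and 16714 CPM for the rod markers.

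Other RNA moved with these values. Of the 8 cone markers with enough UMIs, 8 were lower and 4 past 1.5-fold lower in the Mettl3-CKO cone-like cells (Arr3, Opn1sw, Pde6h and Pde6c), and the list summed to 27340 CPM and 18391 CPM. These markers helped to form the cluster. Of the 14 rod markers with enough UMIs, 6 were past 1.5-fold higher, Cnga1, Rp1 and Pde6b among them, and 1 lower (Guca1b), while the list, with its abundant shared genes, summed to 16740 and 17617 CPM. Cnga1, a subunit of the rod channel, was at 64.2 and 124 CPM. Among cells of 5000 to 20000 UMIs, where depth is more alike, the log2 ratios of Nrl, Nr2e3 and Otx2 were 0.90, 0.55 and 0.70, with 2 of 9 members, Nrl and Otx2, past 1.5-fold, against 9.52% of 5211 genes. Without the 5% of cells with the highest doublet scores, they were 1.36, 1.35 and 1.15, and 6 of 9 members were past 1.5-fold, against 13.5% of 6286 genes. Such scores were held by 8 control and 4 Mettl3-CKO cone-like cells, so this setting was uneven between the libraries. In it Nr2e3 went from 938 to 751 CPM in the control library and from 1890.2 to 1921 CPM in the Mettl3-CKO library. The larger ratios thus came mostly from lower control levels.

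The log2 ratios of Nrl, Nr2e3 and Otx2 were higher with Mettl3-CKO cells that had a Xist UMI than with those that had none. A Xist UMI was found in 56.3% of all Mettl3-CKO cells and in 64.5% of those of at least 4000 UMIs. Finding it thus depends on depth. The subsets were not matched for depth, and the part of depth in this split was not tested. Among cone-like cells of at least 4000 UMIs, 79 control cells were compared with 70 Mettl3-CKO cells that had a Xist UMI, and the log2 ratio was 1.18 for Nrl, 1.12 for Nr2e3 and 0.97 for Otx2, with 6 of 9 members past 1.5-fold against 12.5% of 6135 genes. With the 26 Mettl3-CKO cells that had none, it was 0.67 (0.39 to 0.94), 0.41 (0.23 to 0.59) and -0.07 (-0.30 to 0.15), and 1 of 9 members, Nrl, was past 1.5-fold against 12.1% of 4176 genes. With these cells Prdm1 (-0.44, -1.09 to 0.17) and Rorb (-0.12, -0.39 to 0.16) were also below 0. Xist had a UMI in 2 of the 79 control cells. Opn1sw, the short-wave cone opsin, was lower in both subsets, at -0.85 and -0.63.

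Amacrine-like cells, inhibitory neurons that should lack the rod genes, differed in the same direction. Of 7 members with enough UMIs, 6 were past 1.5-fold there, against 13.0% of 4468 genes. Nrl was at 192 and 392 CPM there (log2 ratio 1.03, 0.70 to 1.37), Nr2e3 at 560 and 905 CPM (0.69, 0.49 to 0.89) and Otx2 at 377 and 722 CPM (0.94, 0.70 to 1.18). Samd7 was at 38.8 and 133 CPM (1.78, 1.08 to 2.54), and the cone genes Opn1sw and Pde6h were higher as well, with log2 ratios of 1.31 and 2.97. In Müller-like glia, Nr2e3, Prdm1 and Samd7 were past 1.5-fold and higher in the Mettl3-CKO library, against 13.0% of 9111 genes. The other members with enough UMIs were not. Nr2e3 was at 121 and 233 CPM there (0.95, 0.75 to 1.14) and Prdm1 at 11.2 and 26.5 CPM (1.24, 0.60 to 1.89). Samd7 was at 10.6 and 23.2 CPM (1.13, 0.46 to 1.81), and Otx2 at 177 and 183 CPM (0.05, -0.14 to 0.24). In progenitor-like cells 3 of 6 members were past 1.5-fold, against 13.1% of 7972 genes, with Crx at 20.3 and 40.9 CPM, Otx2 at 232 and 378 CPM and Prdm1 at 38.3 and 59.5 CPM. In microglia-like cells Nrl had 11 and 2 UMIs and Nr2e3 36 and 4 UMIs, which is the other direction. The part of RNA from other cells, of cells caught together and of sex in the cone-like difference was not tested.

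**Figure D4:**
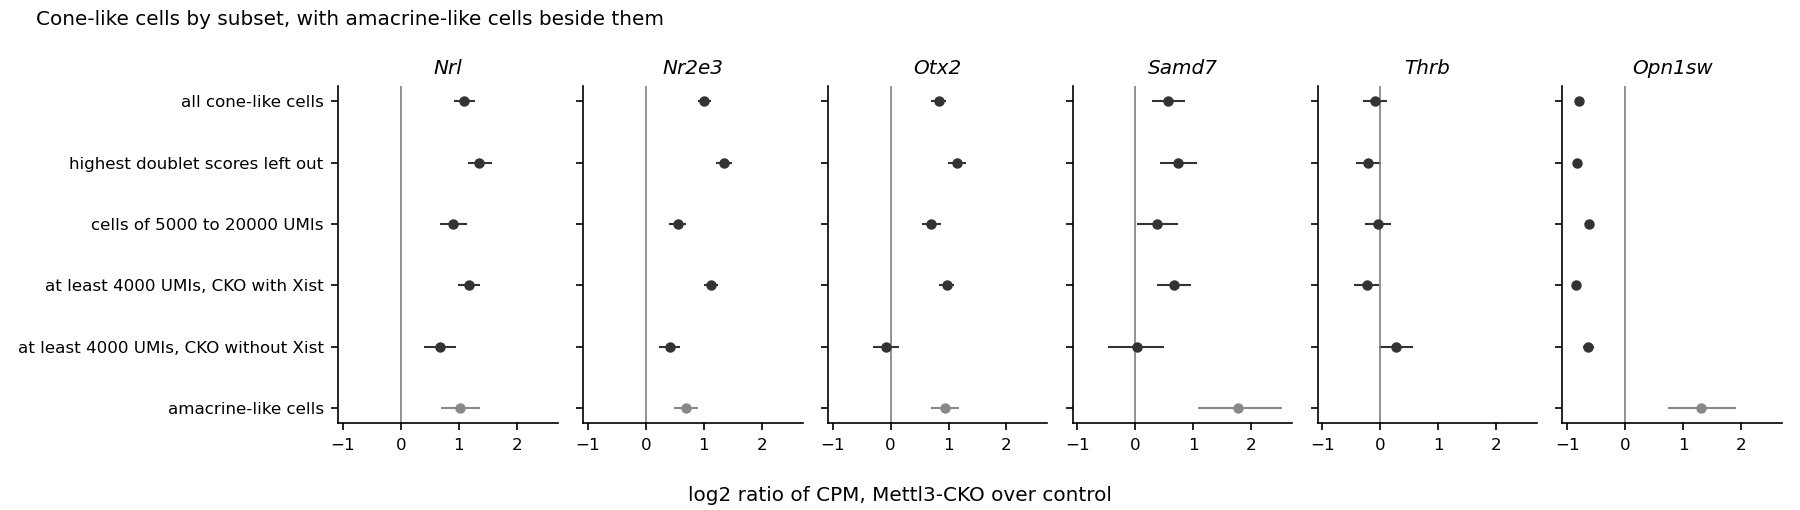
Each panel plots the log2 ratio of CPM of the Mettl3-CKO library over the control library for 1 gene, with exact binomial intervals, in all cone-like cells, in 4 subsets of them and, in grey, in amacrine-like cells. Nrl lies above 0 in each row, from 0.67 to 1.36 in the cone-like rows, while Otx2 lies at -0.07 in the Mettl3-CKO cells without Xist and Thrb in amacrine-like cells has too few UMIs to plot.

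The 15 other regulators of photoreceptors, listed as genes that act beside the 10, had median log2 ratios from -0.13 in Neurod4-high to 0.13 in bipolar-like cells. Counts for the lists of regulators and of markers are to be read beside the shares of all genes past 1.5-fold. Those were given above for each class and run from 5.52% in Pcp2-high to 15.1% in bipolar-like cells. In rod-like cells 1 of 13 was past 1.5-fold, Mef2c, with 23 and 33 UMIs, and in neurogenic-like cells 0 of 12 were. Neurod1, a basic helix-loop-helix factor that keeps photoreceptors alive and had the most UMIs of the list, stood at 3551 and 3819 CPM in rod-like cells and at 2021 and 1525 CPM in neurogenic-like cells. It was at 5185 and 4717 CPM in Neurod4-high, 5263 and 4871 CPM in Pcp2-high, 1823 and 2381 CPM in cone-like and 1105 and 1499 CPM in bipolar-like cells. In Neurod4-high cells Samd11, a Polycomb partner of Samd7 in rods, was past 1.5-fold with 21 and 34 UMIs. Its log2 ratio of 0.70 had an interval that holds 0 (-0.13 to 1.56). Pcp2-high cells had 2 of 14 past 1.5-fold, Mef2c with 15 and 38 UMIs and Ppargc1a with 24 and 42. Cone-like cells had 3 of 13. There Samd11 was higher, at 170.0 and 353 CPM (log2 ratio 1.05), beside Nrl and Nr2e3, and so was Tbx2, with 19 and 67 UMIs. Sall3, a zinc finger factor of cones, was lower, at 162 and 102 CPM (-0.66). In bipolar-like cells Sall3 was the 1 of 12 past 1.5-fold, at 54.0 and 97.3 CPM.

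The 10 regulators of bipolar fate, the alternative to the photoreceptor fate in Otx2-expressing precursors, were set beside these values. In Pcp2-high cells 0 of 4 were past 1.5-fold. In rod-like cells Lhx4 was, with 32 and 87 UMIs, and in neurogenic-like cells Fezf2 was higher, with 27 and 75 UMIs, and Isl1 lower, with 95 and 63. In bipolar-like cells 4 of 10 were lower in the Mettl3-CKO library, Isl1 at 725 and 170 CPM, Vsx1 at 164 and 54.8 CPM, Bhlhe23 at 92.8 and 19.5 CPM and Irx6 with 52 and 10 UMIs. Isl1, Vsx1 and Bhlhe23 are among the genes that lead that cluster. Otx2, as given above, was at nearly equal levels there.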

How the data were processed

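Retinas were dissociated and single-cell 3′ libraries were made in droplets. Reads were trimmed by the authors (fastp) and turned into UMI counts on GRCm38 by Cell Ranger. The submitters' processing notes name Cell Ranger 3.1.0 and Seurat 3.1. The deposited files hold raw UMI counts. Of 5995 control and 6992 Mettl3-CKO barcodes listed, the 3994 (66.6%) and 3109 (44.5%) whose counts were whole in the files used here were analysed. The count tables used here end before the number of entries their size lines state, so these are the cells listed first, and class sizes may depend on it.

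The 13 mitochondrial genes were left out. Cells were normalised to 10000 UMIs and log-transformed, and 2000 variable genes, 10 principal components, 20 neighbours and Leiden clustering at resolution 1 (scanpy 1.11.5, leidenalg 0.10.2) gave 21 clusters, of which 15 were named. The 10 members, Mettl3 and 6 sex-linked genes took no part in clustering. A cluster was named from at least 3 markers of a list raised 1.5-fold and found in 10% of its cells. These limits were set after clusters had been seen, and the Pcp2-high class was added then. Members, gene lists and markers were chosen with earlier results of these data known. All members are named in every class, with list genes past 1.5-fold or of the highest UMI number, and for each member the 3 genes of highest r among those with at least 500 UMIs.

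UMIs were summed per class and library and divided by the class total (CPM, pseudocount 1 only for r). Intervals are exact Poisson for CPM, exact binomial for shares and exact conditional binomial for ratios, at 95%, and cover counting error only. No fold is printed for a gene with 0 UMIs in 1 library. Such a gene was still counted as past 1.5-fold in the shares of all genes and in the counts with no minimum of UMIs. Doublets were kept: Scrublet marked 60 control cells (1.50%) but 8 Mettl3-CKO cells (0.257%), under the 0.5% below which such calls were not relied on, so leaving out the 5% of highest scores was added after the data were seen. A subset of cone-like cells in which fewer members were past 1.5-fold, and some genes of the lists, are not reported here. Scripts were tested on simulated data. Promoters and motifs came from RefSeq, GRCm38.p6.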

Additional observations from a re-analysis of the deposited data

How the results depend on the processing

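Each count of members past 1.5-fold was recomputed under other settings, 101 values in all over the 6 classes, of which 74 stayed within 1.5 times the count given above. Shares of all genes were formed only at 1.5-fold with at least 50 UMIs, and only for the settings where the text above gives them. The other counts here, those at a lower fold or with no minimum among them, thus have no such share beside them. The count for rod-like cells became 1 in the shallow cluster led by Gngt1 alone and stayed at 0 in the other settings run. In neurogenic-like cells the count became 2 at clustering resolution 2, with no minimum of UMIs, with Mettl3-CKO cells without Xist and in the Atoh7 and Olig2 cluster alone, and 1 with the filter of the study, with called doublets left out, with a lower fold and in the Neurog2 and Dll1 cluster alone. In Neurod4-high cells it became 2 at resolution 2 and with called doublets left out, 1 with cells named by their own markers and with a lower fold, and 3 with no minimum. In Pcp2-high cells it became 2 with no minimum and with a lower fold, and 0 with Mettl3-CKO cells without Xist and in either cluster alone. In cone-like cells it became 6 without the highest doublet scores, with a lower fold and with Mettl3-CKO cells with Xist, and 1 with those without Xist. In bipolar-like cells it became 5 with cells named by their own markers, 3 with called doublets left out, and 1 without the highest doublet scores and with a lower fold. Called doublets were 8 control and 1 Mettl3-CKO cells among neurogenic-like cells, and 10 and 0 among bipolar-like cells. Leaving them out was thus uneven between the libraries. The cause of these moves was not tested. Single ratios stayed within their main interval in 512 of 640 cases, and 1 of a member past 1.5-fold turned, Otx2 in cone-like cells, to -0.073 with Mettl3-CKO cells without Xist. No Neurod4-high value exists with each library clustered on its own, and no Pcp2-high value with cells named by their own markers. No paired analysis was possible because each group held 1 library. The settings by single cluster, by a UMI range, by doublet score and without the shallow rod-like cluster, and all for Pcp2-high cells, were chosen after seeing the data.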
